A study of Mus musculus with 8 samples.

Results

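The genes described here encode the constitutive proteasome and the proteins that regulate or assemble it. Members were the protein-coding mouse genes whose symbol starts with Psma, Psmb, Psmc, Psmd or Psme, without the immunoproteasome genes Psmb8, Psmb9 and Psmb10. The rule used no measured value and found 42 of the 55487 genes in the count table. Of these, 14 encode the core particle (7 in the alpha ring, 7 in the beta ring), 17 the regulatory particle, 4 activators and 3 assembly chaperones. A further 2 are core genes restricted to other tissues. The last 2 matched by prefix only: Psmc3ip, which encodes a meiotic recombination protein, and Psme2b, a single-exon copy of Psme2.

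The series measured heart RNA of db/db mice, an obese and type 2 diabetic strain with an inherited defect of the leptin receptor. DIZE, taken here as the drug diminazene aceturate, was given to the mice behind 4 libraries, and vehicle to those behind the other 4. All 8 libraries share the db/db strain and there was no non-diabetic group, so the comparison is of treated with untreated diabetic hearts; the series' title names diabetic cardiomyopathy and oxidative stress. Age, sex, dose and duration are not given in the labels used here, and neither is whether each library came from its own animal, so the p-values rest on a spread between libraries that may be technical.

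The proteasome degrades proteins tagged with ubiquitin chains. A hollow core particle of stacked alpha and beta rings holds the proteolytic sites on the inner face of its beta rings. The regulatory particle caps the core, where its lid and base bind and deubiquitinate the substrate and a ring of ATPases unfolds and threads it through the gate of the alpha ring. In heart muscle the system turns over sarcomere proteins and removes oxidised proteins, and its genes are known to be controlled together by the transcription factor Nfe2l1, with Nfe2l2 as a further regulator under oxidative stress.

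Both factors bind the antioxidant response element, and its short form TGACNNNGC was looked for, on both strands, in the 250 bases before each gene's start (RefSeq promoters, GRCm38.p6). A promoter was found for 35 of the 42 members, and 5 of them (14.3%) held the element, against 10.2% of all 32851 promoters. A member counted if any of its promoters held the match, while the background counted every promoter by itself. The units thus differ for Psma6, Psmc2 and Psme2, which had more than 1 promoter. The background was not matched for GC content. These windows are shown because the series concerns oxidative stress. Each is printed on the strand of its gene with the match in capitals; the windows of Psmc6 and Psmd12 hold it on the opposite strand.
Psmb5, chr14:54618014-54618062, minus strand: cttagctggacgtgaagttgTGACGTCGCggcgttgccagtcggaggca
Psmb6, chr11:70525328-70525356, plus strand: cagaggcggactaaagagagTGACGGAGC
Psmd9, chr5:123228139-123228187, plus strand: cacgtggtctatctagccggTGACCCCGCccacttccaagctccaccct
Psmc6, chr14:45329577-45329625, plus strand: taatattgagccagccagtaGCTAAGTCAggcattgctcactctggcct
Psmd12, chr11:107479278-107479309, plus strand: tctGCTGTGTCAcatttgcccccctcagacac

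The site of the unrelated nuclear respiratory factor 1, a regulator of genes for mitochondrial function, was searched as GCGCA, 1 base of any kind and GCGC, on both strands of the same windows. It was found before 6 of the 35 members (17.1%) and in 3.74% of all promoters, again not matched for GC content, although the site is mostly G and C. These sequences are shown because this was the search in which the members' share stood farthest from the share over all promoters. Capitals again mark the match, which in Psmc5 and Psmd14 reads only on the strand opposite to the gene and in Psma2 on both strands.
Psma2, chr13:14613095-14613144, plus strand: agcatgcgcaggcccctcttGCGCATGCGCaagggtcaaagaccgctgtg
Psma3, chr12:70974525-70974574, plus strand: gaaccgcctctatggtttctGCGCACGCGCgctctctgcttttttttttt
Psma4, chr9:54950778-54950827, plus strand: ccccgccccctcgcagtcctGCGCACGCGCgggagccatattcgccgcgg
Psmc4, chr7:28050232-28050281, minus strand: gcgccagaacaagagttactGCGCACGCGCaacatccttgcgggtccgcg
Psmc5, chr11:106256116-106256165, plus strand: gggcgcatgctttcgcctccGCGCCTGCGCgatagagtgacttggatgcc
Psmd14, chr2:61711594-61711643, plus strand: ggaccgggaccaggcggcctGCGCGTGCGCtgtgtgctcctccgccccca

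The CCAAT box, searched as CCAAT on both strands, was present before 14 of the 35 members (40.0%) and in 33.85% of all promoters. Of these members, Psma6 and Psmc2 also had a promoter without it. None of the 3 motifs contains another, and a match is a description of the sequence only.

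The genes are scattered over the mouse genome, with 10 of the 42 on chromosome 11, 6 on chromosome 14 and 5 on chromosome 2. The 8 libraries held 7447664 to 10161623 counted reads. Levels are given as CPM, counts relative to the total of the tested genes in a library, scaled with edgeR's TMM factors, which lay between 0.947 and 1.12. Of the members, 40 passed the filter on low counts, among 13648 tested genes. The 2 that did not were the tissue-restricted core genes. Psma8, a testis form of an alpha subunit, had 4 to 17 reads per library, and Psmb11, the thymus form of a catalytic beta subunit, had 0 reads in every library, which allows a level of up to 0.0421 CPM over the 8 libraries by counting error alone.

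No proteasome gene passed the test between DIZE and vehicle hearts. With edgeR (quasi-likelihood, p-values adjusted by Benjamini-Hochberg over all tested genes), 0 of 40 members had an adjusted p under 0.05, where 5 of 13648 genes did (0.0366%). At an unadjusted p under 0.05 there was 1 member, the lid gene Psmd3, against 19.4% of all tested genes; with the trends on GC content and length removed there were 9 members, against 18.96% of all tested genes. DESeq2 called 3.97% and limma-voom with library weights 4.11% of the genes they tested, and neither called a member. The members' fitted changes were split into 22 above and 18 below 0, with a median log2 fold change of 0.03, and the median over all tested genes was -0.01.

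The main edgeR fit limits how far these levels can have moved, and the intervals below hold for that fit only. With the GC and length trend removed, the log2 fold change was 0.34 for Psma6 and 0.32 for Psmd14. It was 0.12 for each in the main fit. For 34 of the 40 members the 95% interval of the fold change, not adjusted for the number of genes, lay inside 1.5-fold in either direction, and for 39 it lay inside 2-fold. All 14 core genes were inside 1.5-fold, with bounds between 0.767 and 1.30, as were 15 of the 17 regulatory genes. The exceptions in the regulatory particle were Psmd3 and Psmd11. The members were measured well: 36 of 40 lay above the median level of tested genes, 22.1 CPM, and among genes of at least 50 CPM the median coefficient of variation between DIZE libraries was 6.45% for 35 members and 9.59% for all 3831 genes. Between vehicle libraries it was 9.85% for these members and 12.8% for all such genes.

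**Figure D1:**
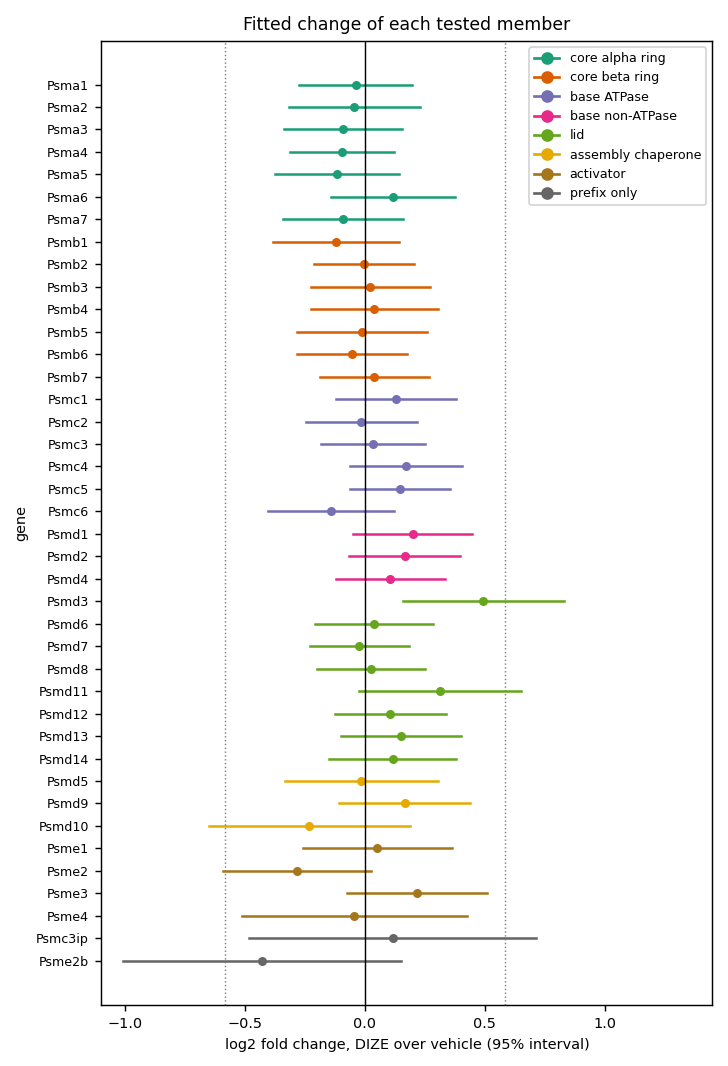
Fitted log2 fold change, DIZE over vehicle, of the 40 tested members (points) with 95% intervals (lines), coloured by class; the dotted lines mark a 1.5-fold change in either direction. The interval of Psmd3 is the only one that leaves out 0, before adjustment over all genes.

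The particles were then taken apart. In the core particle 4 genes lay above and 10 below 0, with a median log2 fold change of -0.04; after removal of the trends on GC content and transcript length in each library, the split was 12 above and 2 below and the median 0.11. This core split also moved with single libraries, to 8 above and 6 below without DIZE 4 (median 0.0016), 7 and 7 without vehicle 1 (-0.0023) and 1 and 13 without vehicle 3 (-0.08). With library totals in place of TMM factors it was 1 and 13 (-0.12), where the median of all tested genes was -0.08. In the regulatory particle 14 genes lay above and 3 below 0, with a median of 0.12, and this median was above 0 under all 16 alternatives (0.05 to 0.17). The regulatory split moved as well, to 11 and 6 with library totals and 12 and 5 without DIZE 2. It was 16 and 1 without DIZE 4 and also with the GC and length trend removed. For reference, 48.2% of all tested genes lay above 0. The smallest edgeR adjusted p was 0.605 in the core and 0.14 in the regulatory particle, so no gene of either particle passed.

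Summed over its 14 genes, the core particle had 1467, 1496, 1536 and 1399 CPM in DIZE 1 to 4, against 1659.7, 1584, 1348 and 1438 CPM in vehicle 1 to 4. The DIZE libraries lay inside the range of the vehicle libraries. The regulatory particle's 17 genes summed to 2354, 2460.0, 2328 and 2201 CPM in DIZE 1 to 4, against 2094, 2275, 2041 and 2183 CPM in vehicle 1 to 4. Here 3 of the 4 DIZE libraries lay above every vehicle library, and DIZE 4 lay below vehicle 2. The ratio of the regulatory sum to the core sum was 1.58 ± 0.0547 in DIZE and 1.43 ± 0.12 in vehicle (SD, n = 4 each). The groups overlapped, since DIZE 3 had 1.515 and vehicle 4 had 1.519. The lowest ratio by far, 1.26, was that of vehicle 1.

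**Figure D2:**
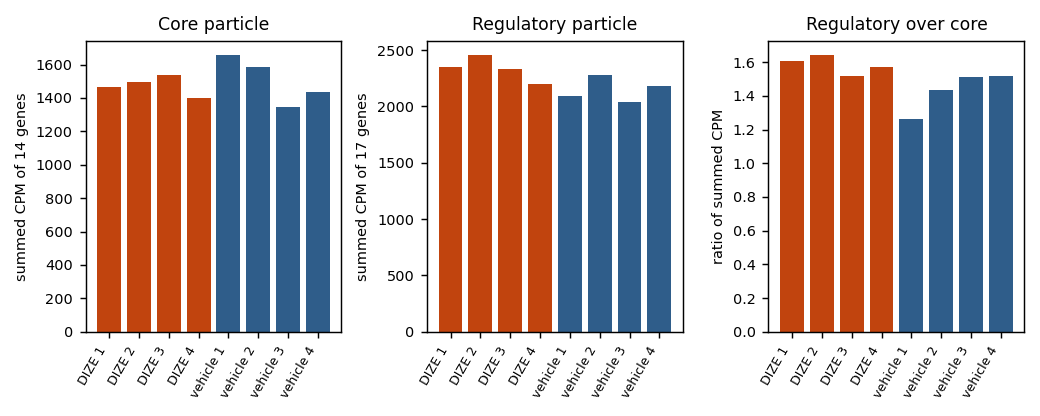
Summed CPM of the core particle (14 genes) and the regulatory particle (17 genes), and the ratio of the sums, with 1 bar per library, DIZE libraries first. The regulatory sum reaches 2460.0 CPM in DIZE 2 and the ratio is lowest, 1.26, in vehicle 1.

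Single libraries accounted for many of the extremes. Vehicle 1 was the highest of the 8 libraries for 6 of 14 core genes and the lowest for 6 of 17 regulatory genes, and vehicle 3 was the lowest for 6 core and 6 regulatory genes. DIZE 2 was the highest for 8 regulatory genes. Vehicle 1 also had the lowest limma-voom library weight, 0.27, and the highest TMM factor, 1.12, of the 8 libraries. It stood apart in the sums of some cell markers as well. The summed level of 6 cardiomyocyte markers was 31444 to 36168 CPM in DIZE and 19117 (vehicle 1) to 33828 CPM in vehicle. Myh6, Actn2 and Ryr2 were lowest in vehicle 1, at 8858, 940 and 776 CPM. Tnnt2 was at 5175 CPM there and at 5192 CPM in vehicle 3, while Tnni3 and Pln were lower in other libraries. The summed level of 5 atrial markers was 13.6 to 130.5 CPM in DIZE and 35.7 to 824 CPM in vehicle, with vehicle 1 the highest. The summed fibroblast markers were also highest in vehicle 1, with 1020 to 1388 CPM in DIZE and 1182 to 2018 CPM (vehicle 1) in vehicle. The single markers disagreed. Dcn, at 1462 CPM, Lum, Pdgfra and Tcf21 were highest in vehicle 1. Pi16 was higher in vehicle 3 (110.5 CPM) than in vehicle 1 (101.9 CPM). Col1a1 was lowest of the 8 libraries in vehicle 1, at 45.2 CPM. In bulk heart RNA, fewer cells of a type and less RNA per cell cannot be told apart, and the part of these markers in the proteasome values was not tested.

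All 6 cardiomyocyte markers were tested genes, as the tissue label implies, while the fast skeletal muscle markers Myh4 and Myh1 were under 1 CPM in every library. The summed skeletal muscle markers were 889 to 1582 CPM in DIZE and 939 to 1435 CPM in vehicle. Nearly all of this sum came from Ckm, at 668 to 1009.5 CPM over the 8 libraries, and Acta1, at 90.8 to 600 CPM. Tnnt3 was at most 1.48 CPM. Macrophage markers summed to 291 to 315 CPM in DIZE and 304 to 492 CPM in vehicle, and endothelial markers to 769 to 1045 CPM in DIZE and 871 to 1284 CPM in vehicle. Erythroid markers did not overlap, with 8.95 to 78.5 CPM in DIZE and 101 to 210.1 CPM in vehicle, and neither did cell division markers, with 1.34 to 4.58 CPM in DIZE and 8.85 to 20.01 CPM in vehicle. Liver markers were 0.395 to 2.69 CPM in DIZE and 0.536 to 1592 CPM in vehicle, where vehicle 2 was the highest.

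**Figure D3:**
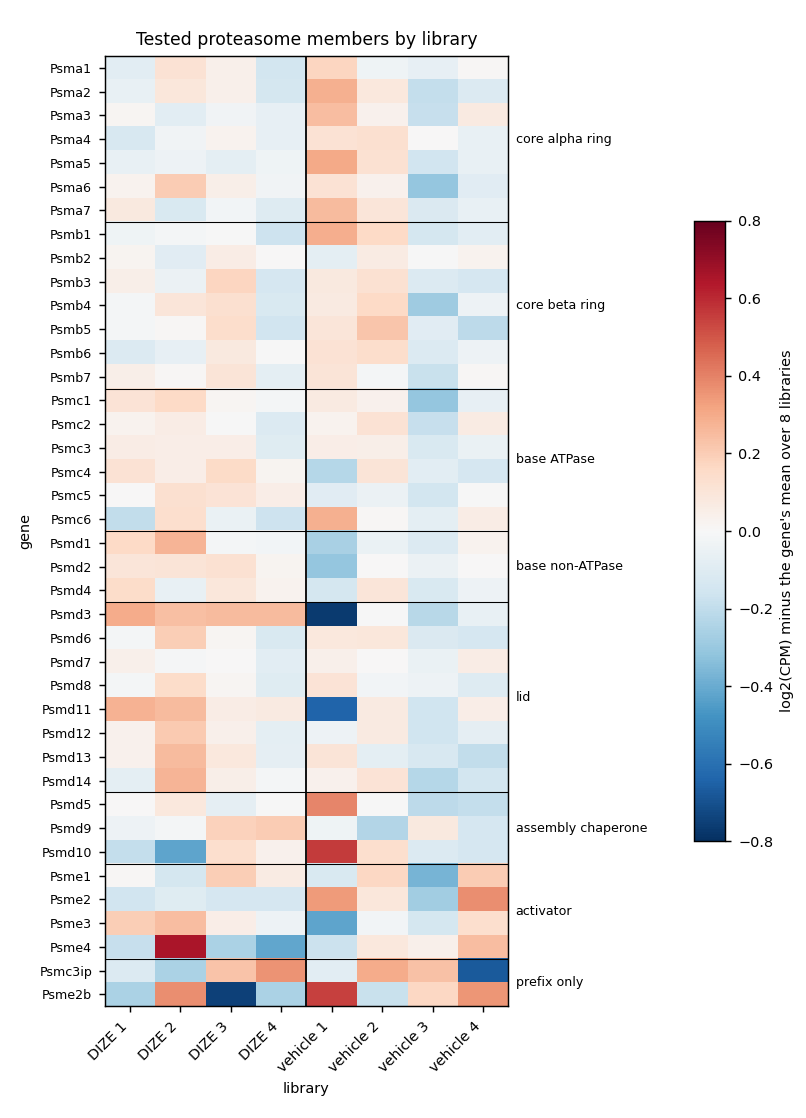
Level of each tested member in each library, as log2 CPM minus the gene's mean over the 8 libraries (colour, red above and blue below the mean), by class from top to bottom, with the DIZE libraries left of the line. In vehicle 1 several alpha ring genes are red while Psmd3 and Psmd11 are the bluest cells of the lid.

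The alpha ring forms the gate and the docking surface for the regulators. Of its 7 genes 1 lay above and 6 below 0 (median log2 -0.09), and the range of the fitted changes, -0.12 to 0.12, was narrow. Psma5, which encodes the alpha 5 subunit, had 70.6, 71.4, 69.5 and 71.7 CPM in DIZE 1 to 4, against 90.8, 80.0, 66.0 and 70.5 CPM in vehicle 1 to 4. The 4 DIZE values were nearly equal and lay inside the vehicle range. Its log2 fold change was -0.12 ± 0.12 (SE, edgeR adjusted p = 0.605). It was 0.03 with the GC and length trend removed, -0.03 without vehicle 1 and -0.18 without vehicle 3. Psma6, the alpha 1 subunit and the alpha ring gene above 0, had 135, 152, 137 and 130.2 CPM in DIZE, against 144, 136, 107 and 124 CPM in vehicle (log2 0.12 ± 0.12, adjusted p = 0.607). The groups overlapped, with vehicle 3 the lowest library. The log2 fold change was 0.04 without vehicle 3, 0.07 without DIZE 2 and 0.18 without vehicle 1. With the GC and length trend removed it was 0.34 (edgeR adjusted p = 0.133).

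The beta ring holds the proteolytic sites. Its 7 genes had a median log2 fold change of -0.004, with 3 above and 4 below 0. Psmb5 encodes the chymotrypsin-like site, the main target of proteasome inhibitors such as bortezomib, and its promoter window with the antioxidant response element is printed above. It had 49.2, 50.1, 54.9 and 44.9 CPM in DIZE 1 to 4, against 53.3, 58.0, 46.8 and 43.1 CPM in vehicle 1 to 4. The means were 49.8 ± 4.11 and 50.3 ± 6.64 CPM (SD, n = 4 each) in DIZE and vehicle hearts, and the fold change was 0.990 with a 95% interval of 0.82 to 1.20.

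Psmb6, which encodes the caspase-like site and also carries the element, had 113, 116, 128 and 121 CPM in DIZE, against 132, 134, 113 and 118 CPM in vehicle (log2 -0.05 ± 0.10, adjusted p = 0.807). Psmb7, the trypsin-like site, had 75.7, 73.5, 78.6 and 69.2 CPM in DIZE, against 78.5, 72.2, 64.8 and 73.6 CPM in vehicle (log2 0.04 ± 0.10, adjusted p = 0.867). For all 3 catalytic genes the groups overlapped, and in the main edgeR fit the intervals of the fold change lay between 0.82 and 1.20. With the GC and length trend removed the log2 fold change of Psmb7 was 0.20. Psmb7 shares 405 exonic bases with Nek6 on the opposite strand. Nek6 was at 8.61 CPM against 73.3 CPM for Psmb7, which is more than 0.1 of the level of Psmb7. Psmb1, a non-catalytic subunit, had 125, 126, 127 and 114 CPM in DIZE, against 156, 142, 116 and 120.1 CPM in vehicle (log2 -0.12 ± 0.12, adjusted p = 0.607). It was 0.05 with the GC and length trend removed, -0.04 without vehicle 1, -0.08 without DIZE 4 and -0.18 without vehicle 3.

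The immunoproteasome genes left out of the set replace these catalytic subunits under interferon. The ratio of Psmb8 CPM to Psmb5 CPM was 0.196, 0.144, 0.0884 and 0.239 in DIZE 1 to 4, against 0.268, 0.131, 0.126 and 0.677 in vehicle 1 to 4. Vehicle 4 was thus the highest library, and it was also the highest in the summed level of 6 interferon response genes, which was 52.8 to 120.0 CPM in DIZE and 56.7 to 708 CPM in vehicle.

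In the base of the regulatory particle, the 6 ATPase genes were split 4 above and 2 below 0 (median log2 0.08). Psmc4 had 91.1, 87.0, 93.4 and 85.2 CPM in DIZE 1 to 4, against 71.7, 90.04, 79.0 and 76.3 CPM in vehicle 1 to 4. Vehicle 2 lay inside the DIZE range, and the log2 fold change was 0.17 ± 0.11 (SE, edgeR adjusted p = 0.397). Psmc5 had 108, 118, 116 and 112 CPM in DIZE, against 101, 104, 97.5 and 108 CPM in vehicle. All 4 DIZE libraries were above all vehicle libraries, by less than 1 CPM at the nearest pair, DIZE 1 and vehicle 4, and the change did not pass (log2 0.15 ± 0.10, adjusted p = 0.417). Psmc6 lay farthest below 0 in the particle, with 121 ± 12.8 CPM in DIZE and 133 ± 14.8 CPM in vehicle (SD, n = 4 each).

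The groups failed to overlap for 3 of the 40 members, Psmd3, Psmd2 and Psmc5, each with DIZE higher, and for 12.4% of all tested genes. Split by direction, 7.17% of all genes had every DIZE library above every vehicle library and 5.26% had it below, against 3 and 0 of the 40 members. The members' shares are thus close to the background for the genes above and were 0 for the genes below.

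The 3 non-ATPase genes of the base all lay above 0 (median log2 0.17). Psmd2 encodes the scaffold that receives ubiquitin shuttle proteins. It had 294, 296, 299 and 280.2 CPM in DIZE 1 to 4, against 223, 277, 267 and 276 CPM in vehicle 1 to 4 (log2 0.17 ± 0.11, adjusted p = 0.403). Psmd1, the second large scaffold, had 186, 201, 165 and 164 CPM in DIZE, against 139, 161, 154 and 169.5 CPM in vehicle (log2 0.20 ± 0.11, adjusted p = 0.353). Vehicle 1 was the lowest library for both, and without it the log2 fold change of Psmd2 was 0.10. Psmd4, a ubiquitin receptor, had 129, 112, 124 and 119 CPM in DIZE, against 106, 124, 107 and 113 CPM in vehicle, with overlap (log2 0.11 ± 0.10, adjusted p = 0.603).

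The lid held the member farthest above 0 and 7 of its 8 genes lay on that side (median log2 0.11). Psmd3 (ENSMUSG00000017221, chr11:98682554-98695979, GRCm38), a structural lid subunit, had 162, 156, 158 and 158 CPM in DIZE 1 to 4, against 77.8, 132, 113 and 127 CPM in vehicle 1 to 4. The DIZE libraries lay within a few CPM of each other and above every vehicle library, among which vehicle 1 was the lowest. The mean was 158 ± 2.58 CPM in DIZE and 112 ± 24.5 CPM in vehicle (SD, n = 4 each), a fold change of 1.41 with a 95% interval of 1.12 to 1.78. Its log2 fold change of 0.49 ± 0.15 (SE) had an unadjusted edgeR p of 0.00755 and did not pass over all genes (adjusted p = 0.14). The adjusted p lay between 0.0552 (limma-voom with library weights) and 0.283 (without DIZE 3) over the 16 alternatives, and the log2 fold change between 0.32 and 0.58. Without vehicle 1 it was 0.35 (adjusted p = 0.112).

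Psmd3 was also set against the median of the 8 lid genes, itself included, in the same library. This ratio was 1.26, 1.19, 1.31 and 1.35 in DIZE 1 to 4, against 0.879, 1.11, 1.06 and 1.10 in vehicle 1 to 4, with no overlap. The ratio was computed because the gene stood out, so no test is given.

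Psmd11, a lid subunit that also touches the alpha ring, had 135, 132, 116 and 117 CPM in DIZE 1 to 4, against 71.2, 117, 99.4 and 115 CPM in vehicle 1 to 4. DIZE 3 lay below vehicle 2, and vehicle 1 was by far the lowest. The log2 fold change of 0.31 ± 0.15 (adjusted p = 0.291) was 0.18 without vehicle 1. Psmd14, the deubiquitinase that removes ubiquitin chains from substrates, had 68.9, 87.8, 75.1 and 72.0 CPM in DIZE, against 74.2, 78.4, 62.1 and 65.4 CPM in vehicle, with overlap (log2 0.12 ± 0.12, adjusted p = 0.625). It was 0.04 without DIZE 2, 0.06 without vehicle 3, 0.17 without vehicle 2 and 0.32 with the GC and length trend removed. The other lid genes, Psmd6, Psmd7, Psmd8, Psmd12 and Psmd13, had log2 fold changes of 0.04, -0.02, 0.03, 0.11 and 0.15. Psmd13 shares 342 exonic bases with Sirt3 on the opposite strand, which was at 37.7 CPM against 87.4 CPM for Psmd13. Whether reads were counted by strand is not given in the sources used here, so the level of Psmd13 is uncertain to that extent. Of the 42 members 11 share exonic bases with another gene, and for 6 that gene reached at least 0.1 of the member's level; Psmd3 is not among the 6, since its partner Gm12356 was at 0.0812 CPM.

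**Figure D4:**
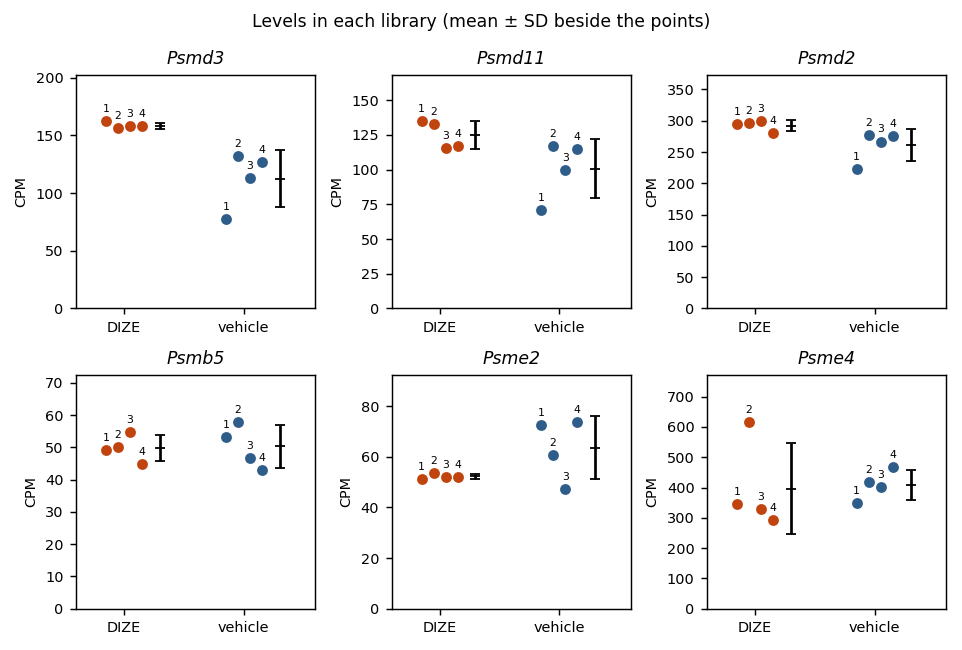
CPM of 6 members in each library (points, numbered by library within the group) with the mean and SD of the 4 libraries beside them, DIZE left of vehicle. Psmd3 shows DIZE libraries near 158 CPM and vehicle 1 at 77.8 CPM, Psmb5 shows overlapping groups, and Psme4 shows DIZE 2 at 618 CPM.

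Among the assembly chaperones, which help build the base and leave before the proteasome is complete, 1 gene lay above and 2 below 0. Psmd9 had 19.5, 19.9, 22.8 and 23.1 CPM in DIZE, against 19.6, 17.1, 21.2 and 18.3 CPM in vehicle (log2 0.17 ± 0.12, adjusted p = 0.485). Psmd10, which encodes gankyrin, had 10.01, 8.55, 12.5 and 11.7 CPM in DIZE, against 16.8, 12.6, 10.6 and 10.4 CPM in vehicle (log2 -0.23 ± 0.19, adjusted p = 0.525). Both genes overlapped between the groups, and the log2 fold change of Psmd10 was 0.03 with the GC and length trend removed, -0.06 without vehicle 1 and -0.14 without DIZE 2. Psmd5 was at 29.3 ± 1.28 CPM in DIZE and 29.5 ± 6.10 CPM in vehicle (SD, n = 4 each).

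The activators open the core without ATP. Psme1 and Psme2 encode the interferon-inducible PA28 alpha and beta subunits, Psme3 the nuclear PA28 gamma, and Psme4 the large activator PA200. Psme2 had 51.4, 53.4, 52.0 and 52.0 CPM in DIZE 1 to 4, against 72.3, 60.8, 47.2 and 73.9 CPM in vehicle 1 to 4. The DIZE libraries lay close together, below 3 of the 4 vehicle libraries and above vehicle 3. The log2 fold change was -0.29 ± 0.14 (SE, edgeR adjusted p = 0.293), and -0.20 without vehicle 4, the library with the highest interferon response sum. Its partner Psme1 was at 141 ± 13.6 CPM in DIZE and 136 ± 24.6 CPM in vehicle (log2 0.05 ± 0.14). The ratio of Psme2 to Psme1 was 0.329 to 0.427 in DIZE and 0.394 to 0.571 in vehicle, with overlap.

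Psme3 had 108, 111, 97.4 and 91.4 CPM in DIZE, against 70.1, 92.5, 85.3 and 103 CPM in vehicle (log2 0.22 ± 0.13, adjusted p = 0.39; 0.12 without vehicle 1). Psme4 had 346, 618, 329 and 294 CPM in DIZE 1 to 4, against 348, 417, 403 and 466 CPM in vehicle 1 to 4. DIZE 2 lay above every other library, while the other DIZE libraries lay below every vehicle library. The log2 fold change was -0.04 ± 0.21 (adjusted p = 0.933) with all libraries and -0.34 without DIZE 2. The prefix-only genes were near the lower limit of what was tested. Psmc3ip was at 2.64 ± 0.519 CPM in DIZE and 2.49 ± 0.688 CPM in vehicle (log2 0.11 ± 0.27, adjusted p = 0.85), and shares 385 exonic bases with the more abundant Mlx on the opposite strand. Psme2b was at 3.63 ± 1.18 CPM in DIZE and 4.83 ± 1.00 CPM in vehicle (log2 -0.43 ± 0.26, adjusted p = 0.387; -0.65 without DIZE 2 and -0.27 without DIZE 3). Reads of its near-identical parent Psme2 could be counted to it, so its level is uncertain.

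Subunits of a particle are present in equal numbers, and their mRNA levels were compared per kilobase of 1 transcript for each gene, over all 8 libraries. Core genes spanned 40.3 to 153 CPM per kilobase with a median of 95.7, and regulatory genes 39.6 to 131 with a median of 63.1. Psmb6 at 153 and Psmc3, an ATPase gene, at 131 were the highest, followed by Psma6, Psma7 and Psmb2 at 128, 127 and 126, which did not differ beyond their spread. The 3 catalytic genes differed in level, with Psmb6 at 153, Psmb7 at 63.2 and Psmb5 at 55.6 CPM per kilobase. Psmd3 stood at 63.1 and Psmd11 at 39.6. The 3 chaperone genes lay below every core and regulatory gene, at 6.68 to 8.15. These levels and their order depend on the length used. Over all annotated exons of a gene, Psmb6 was at 65.2, Psmb5 at 55.6 and Psmb7 at 21.4 CPM per kilobase, so Psmb5 and Psmb7 changed places, and Psma6 at 108 was the highest core gene. The medians on that length were 43.95 for core and 38.9 for regulatory genes. Fixed lengths cannot follow shorter or longer forms in the heart.

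**Figure D5:**
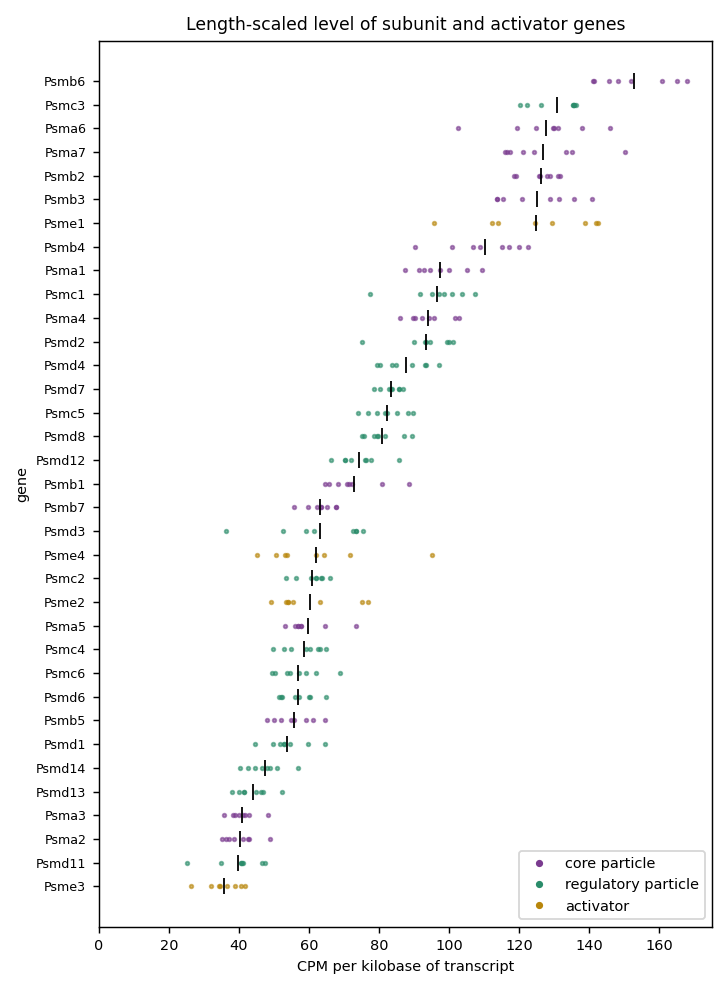
CPM per kilobase of transcript of the core, regulatory and activator genes, ordered by the mean, with 1 point per library and a bar at the mean. On the length of the chosen transcript Psmb6 is highest at 153 CPM per kilobase, and Psme3 lowest of those shown at 35.6.

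The printed promoter windows can be set beside these changes. The 5 members with the antioxidant response element had a median log2 fold change of -0.01 (-0.14 for Psmc6 to 0.17 for Psmd9). The 29 tested members with a promoter but without this element had a median of 0.04. The 6 members with the nuclear respiratory factor 1 site had a median of 0.04, and the 28 with a promoter but without it 0.03. Psmb1, Psmb2, Psmb7, Psmc3, Psmd3 and Psmd7 were tested but had no promoter to search. They are in none of these groups, and Psmd3, at 0.49, is thus left out. Members with the CCAAT box had a median of 0.02. The median standard error of a member's log2 fold change was 0.11.

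Genes that act around the proteasome were described from lists of known pathway members, and in each of the 7 lists 0 genes passed. Of 14 genes for transcription control, 9 lay above and 5 below 0 (median log2 0.08). Nfe2l1, the main activator of proteasome genes, was at 832 ± 161 CPM in DIZE and 646 ± 67.5 CPM in vehicle (SD, n = 4 each). All 4 DIZE libraries lay above all vehicle libraries, and the log2 fold change was 0.37 ± 0.14 (edgeR adjusted p = 0.201). Nfe2l2 was at 112 ± 24.6 CPM in DIZE and 130.1 ± 32.7 CPM in vehicle (log2 -0.22 ± 0.20, adjusted p = 0.569). The CCAAT-binding subunit genes Nfyb and Nfya had log2 fold changes of 0.28 (adjusted p = 0.256) and -0.37 (adjusted p = 0.294).

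Of 11 proteasome partners, 7 lay above and 4 below 0 (median log2 0.07). Akirin2, which carries proteasomes into the nucleus, had a log2 fold change of 0.29 (adjusted p = 0.212), and Psmf1, a core inhibitor, one of 0.35 (adjusted p = 0.243). The 5 assembly genes of the core were split 3 above and 2 below, with a median of 0.00. Of 13 shuttle and VCP genes, 12 lay above 0 (median log2 0.15), among them the shuttle genes Ubqln2 at 0.56 and Ubqln4 at 0.49 (adjusted p = 0.222 and 0.225).

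Of 6 genes for ubiquitin and its activating enzyme, 2 lay above and 4 below 0. The smallest edgeR adjusted p in this list was 0.0888. It belonged to a gene not named here, the only 1 of the 6 with an unadjusted p under 0.05, with DIZE higher. Uba1, which encodes the main ubiquitin-activating enzyme, was at 364 ± 22.9 CPM in DIZE and 266 ± 87.0 CPM in vehicle (SD, n = 4 each), with vehicle 1 the lowest library. The groups did not overlap, and the change did not pass (log2 0.45 ± 0.22, edgeR adjusted p = 0.286). Of 13 muscle ubiquitin ligase genes and their cofactors, 8 lay above and 5 below 0 (median log2 0.27). Trim63, which encodes MuRF1, a ligase for sarcomere proteins, was at 292 ± 52.6 CPM in DIZE and 233 ± 20.2 CPM in vehicle (log2 0.33, adjusted p = 0.229). Trim55 had a log2 fold change of 0.43 (adjusted p = 0.217), and Nedd4, a ligase of membrane proteins, one of -0.25 (adjusted p = 0.229). The 3 immunoproteasome genes all lay below 0 (median log2 -0.69), with the smallest adjusted p 0.351 for Psmb8. Vehicle 4 was the highest library for all 3, at 29.1 CPM for Psmb8, 34.9 for Psmb9 and 59.9 for Psmb10. The other vehicle libraries overlapped DIZE. They had 5.90 to 14.3 CPM of Psmb8 and 7.70 to 13.2 CPM of Psmb9, against 4.85 to 10.7 and 7.11 to 14.8 CPM in DIZE.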

How the data were processed

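Heart RNA was sequenced in 8 libraries, and the authors deposited 1 table of raw, unnormalized counts of reads for each Ensembl gene ID. Per the labels' protocols, libraries were poly(A)-selected with a stranded kit. Per the submitters' processing notes, STAR 2.7.3, HTSeq 0.6.1p1, edgeR, R 4.1 and mm10 were used; what settings they had, strand included, is not given in the sources used here. There were 0 columns of other samples. Every pair of libraries differed beyond sampling noise (chi-square per degree of freedom of at least 5.23). Symbols and transcript lengths came from GENCODE M21.

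CPM, log2 fold changes and p-values were computed here from the counts by edgeR 4.0.16 (R 4.3.3): TMM factors, filterByExpr (minimum count 10, total 15), robust quasi-likelihood test, two-sided, no covariate, Benjamini-Hochberg adjustment over 13648 genes, threshold 0.05. Standard errors are those of the fitted log2 fold changes. The fit was tested on simulated data. Libraries were numbered within groups in accession order.

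Members and lists were chosen with earlier results of these data known. Named in full were, per class, the 2 tested members with the smallest unadjusted p, with Psmb5, Psmb6, Psmb7, Psmd4, Psmd14 and Psme4; other members appear by level or range, and up to 3 genes per list. Nfe2l2 was named outside this rule, after its values were seen. Marker lists gave sums, and some single markers were named after their values were seen. Some listed genes are not reported here.

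Alternatives were DESeq2 1.42.0, limma-voom (limma 3.58.1) with library weights, other size factors, no filter, title blocks, GC and length correction, and leaving out each library. Numbers in the titles repeat within the groups, so whether libraries were paired could not be determined from them.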

Additional observations from a re-analysis of the deposited data

Results flagged for a closer look

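Psme4, which encodes the proteasome activator PA200, had 617.74 CPM in DIZE 2, far from the other 3 DIZE libraries at 294 to 346 CPM. The gap was 0.839 of the group's range, above Dixon's critical value for 4 samples. This was the single value so far from its group among the 42 groups of 4 examined, and chance flags about 1 in 20 groups. DIZE 2 was also the highest of the 8 libraries for 8 of the 17 regulatory particle genes.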

How the results depend on the processing

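No proteasome member passed under any of the 16 alternatives, and of 336 values of the 21 named members 318 kept their direction. The count of genes changed over the whole table, 5, was 578 with DESeq2, 561 with limma-voom, 386 without the filter, 42 with the GC and length trend removed, 9 with title form as a block, 0 with library totals and 0 to 240 with 1 library left out. With the title number as replicate block it was 5. Same-numbered libraries had correlations of -0.14 to 0.0204 between their deviations from the group mean. The number 4 repeats within each group, so these values cannot show whether libraries were paired. The core median was 0.11 with the GC and length trend removed, where 9 of 40 members and 18.96% of all tested genes had an unadjusted p under 0.05, against 1 member and 19.4% without that correction; the cause was not tested. Signs changed in 8 named members, whose main values lay between -0.23 (Psmd10) and 0.11 (Psmc3ip). With the GC and length trend removed Psma5 was 0.0277, Psmb1 0.0502, Psmd10 0.0299 and Psme4 0.1291. With limma-voom Psmb5 was 0.0599, Psmb6 0.0003 and Psmd10 0.0061. Psmb5 was 0.0062 without the filter and Psmb7 -0.0332 with library totals. With 1 library left out, Psmb5 ranged between -0.0823 and 0.0615, Psmb7 between -0.0096 and 0.0808, Psmc3ip between -0.0631 and 0.2353, and Psme4 between -0.3393 and 0.0811. Depth limits the prefix-only genes and Psma8, which had few reads.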
